A study of Mus musculus with 7 samples.

Results

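The circadian clock genes described here are the 10 genes Arntl, Clock, Per1, Per2, Per3, Cry1, Cry2, Nr1d1, Nr1d2 and Dbp. They were taken from the gene table by their symbols, and all 10 had a row among its 23420 rows and were among the 15258 genes tested. Bulk RNA sequencing had been run on flash-frozen ventricle of untreated mice aged 3 to 6 weeks, a tissue that the labels also call whole heart. The 4 control hearts came from Ctla4+/+;Pdcd1-/- mice and the 3 ICI-myocarditis hearts from Ctla4+/-;Pdcd1-/- mice, so all 7 animals were labelled as lacking Pdcd1 and the groups differed in Ctla4, 2 copies against 1. Both genes encode receptors that restrain T cells and that immune checkpoint inhibitors (ICI) block, and the mice model the heart inflammation such drugs can cause. The labels do not say which bases the alleles lack, whether animals shared a litter, or at what time of day hearts were taken. Replicates are separate samples in the labels, and p-values below measure the spread between these samples.

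The molecular clock is a feedback loop of transcription that runs in nearly every cell, cardiomyocytes included. ARNTL (also called BMAL1) and CLOCK bind E-boxes and switch on the Per and Cry genes, whose proteins in turn inhibit them. The same pair switches on Nr1d1 and Nr1d2, which encode the repressors REV-ERB alpha and beta of Arntl, and Dbp, an output factor that binds D-boxes. In a running clock Arntl RNA therefore peaks at a time of day when Nr1d1, Nr1d2 and Dbp RNA are low, and pairs of such genes are called antiphase.

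Of the 10 genes, Nr1d1 was the 1 that passed the test, and it was lower in ICI-myocarditis hearts. Per2 was higher and Clock lower in those hearts with no overlap between the groups, but neither passed. The authors' deposited comparison does list Per2 with an adjusted p under 0.05. Of all genes tested 15.7% passed and 28.6% had groups that did not overlap, beside 1 and 3 of these 10. Arntl, Nr1d2 and Dbp ranged further among hearts of 1 group than the group means lay apart. Within each group the hearts with high Arntl had low Nr1d2, but Nr1d1 did not run opposite to Arntl. Over all 7 hearts, none of the 6 pairs of Arntl with another clock gene passed.

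Sequences of the kind these factors read lie in some of the members' own promoters, and 5 matches are printed. Promoter windows of RefSeq (GRCm38.p6, 250 bases before to 50 after a start, 300 in all) were found for 9 of the 10 genes, 13 windows in total, and were searched on both strands. The E-box CACGTG occurs in 7.15% of all 32851 such windows. The D-box TTATGTAA or TTACGTAA occurs in 1.06%, the RORE that REV-ERB proteins bind in 0.384% and the cAMP response element TGACGTCA in 1.79%. Among the members' windows an E-box was found in Per1 and Cry1, 2 D-boxes in Per3 and a RORE in Arntl. The windows of Clock, Cry2, Nr1d1, Nr1d2 and Dbp held no match to any of these motifs, and Per2 had no window. The motif is in capitals below, 5′ to 3′ on the gene's strand.
Per1, E-box, chr11:69098756-69098815, plus strand: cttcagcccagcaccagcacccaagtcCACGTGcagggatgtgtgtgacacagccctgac
Cry1, E-box, chr10:85185082-85185141, minus strand: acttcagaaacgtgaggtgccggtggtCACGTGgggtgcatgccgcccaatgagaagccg
Per3, D-box, chr4:151044838-151044897, minus strand: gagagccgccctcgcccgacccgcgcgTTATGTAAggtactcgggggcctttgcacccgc
Per3, D-box, chr4:151044791-151044850, minus strand: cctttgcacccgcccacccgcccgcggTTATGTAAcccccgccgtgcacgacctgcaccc
Arntl, RORE, chr7:113207528-113207557, plus strand: ggaaggcagAAAGTAGGTCAgggacggagg
The first base of the motif lies at -166 from the start in Per1, -60 in Cry1, -205 and -158 in Per3 and 26 bases after the start in Arntl. A match is a run of letters and was not tested for binding.

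The values are gene read counts that the authors had divided by 1 size factor per library, called normalized counts here. Recovered read totals ran from 20931730 to 39037176 per library. Summed markers of T cells were at 5464 to 8319 normalized counts in ICI-myocarditis hearts and 96.3 to 1158 in controls, with 5 of 5 markers called higher. Control 2 held the 1158 and stood apart from the other 3 controls, which had at most 144. Macrophage markers were at 17819 to 36093 against 5535 to 6510 (5 of 5 higher). Fibroblast markers were at 41424 to 78707 against 22863 to 39064 (1 of 5 higher). The 1 called was Col1a1, at 23073 to 50515 against 7155 to 19786.5, which made up much of the sum in ICI-myocarditis hearts. Pdgfra, Dcn and Lum overlapped between the groups, and Tcf21, with far fewer counts, did not. Mural cell markers were at 9871 to 15362 against 26390 to 35761 (2 of 3 lower). Endothelial markers were at 16584 to 24066 against 25093 to 63951 (2 of 5 lower). All 5 endothelial markers were lower at a limma unadjusted p under 0.05. DESeq2 and limma-voom with quality weights each called all 5 lower. The 6 cardiomyocyte markers were high in all hearts, at 678614 to 1206680 against 1114310 to 2119840. Of these 6, 0 passed in limma or edgeR and 2 had a limma unadjusted p under 0.05. DESeq2 called 3 lower and limma-voom with quality weights 1. Atrial markers summed to 52.2 to 124 in all 7 hearts, B cell markers to 22.2 to 62.5, skeletal muscle markers to 14.3 to 137, and fat markers to 1.53 to 82.6. Of the 4 red blood cell markers, Hba-a1 and Hbb-b1 were listed at 0 throughout, and the list summed to 10755, 21484, 28144 and 42548 in controls and to 28527, 11885 and 6845 in ICI-myocarditis hearts, ranges that overlapped. Ctla4 was at 29.2, 113, 69.2 and 41.3 normalized counts in controls and 282, 250.7 and 373 in ICI-myocarditis hearts. Pdcd1 was at 9.07, 244, 3.35 and 2.50 and at 1481, 1096 and 1340. These are counts over whole genes, and with the deleted bases not given they do not check the genotype labels. In bulk tissue fewer cells of a type and less RNA per cell cannot be told apart, and the part of these differences in the clock genes' values was not tested.

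Per kilobase of exon, the scale on which genes can be set side by side, the repressor and output genes stood highest in controls. Nr1d1 led with 1726 ± 149 normalized counts per kb (SD, n = 4), followed by Nr1d2 with 1207 ± 311, Dbp with 923 ± 181 and Per1 with 625 ± 339. Nr1d1 and Nr1d2 did not overlap among controls, whereas Nr1d2, Dbp and Per1 lay within each other's spread. Cry2 (201 ± 11.8), Clock (186 ± 14.0), Per3 (180 ± 59.0) and Per2 (168 ± 32.6) formed a close group of neighbours whose order is not resolved by their SDs. Cry1 followed at 120 ± 7.83, and Arntl was lowest at 27.1 ± 9.41. In ICI-myocarditis hearts the order changed at the top, to Nr1d2 (797 ± 274, n = 3), Nr1d1 (759 ± 237), Per1 (753 ± 79.5) and Dbp (676 ± 290), and these 4 lay within their SDs. Arntl was again lowest, at 20.4 ± 9.80.

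**Figure D1:**
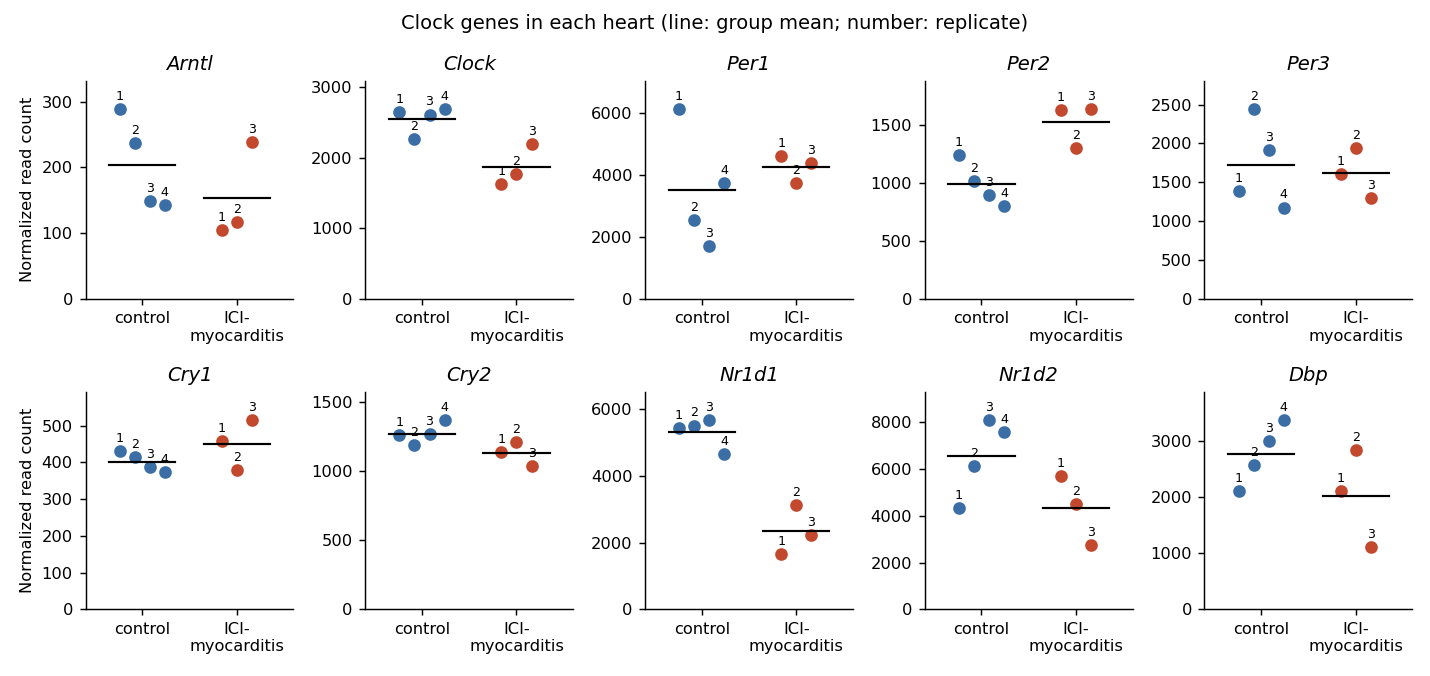
Normalized read counts of the 10 clock genes in each heart, 1 panel per gene with its own linear axis from 0. Points are libraries with their replicate number, blue for the 4 controls and red for the 3 ICI-myocarditis hearts, and lines are group means. Nr1d1, Per2 and Clock are the 3 panels in which the groups do not overlap.

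Nr1d1, on chromosome 11 (GRCm38, chr11:98767932-98775333, minus strand), encodes REV-ERB alpha, a heme-binding nuclear receptor that represses Arntl. Controls 1 to 4 had 5438, 5500, 5661 and 4638 normalized counts, and ICI-myocarditis hearts 1 to 3 had 1661, 3110 and 2232. The highest ICI-myocarditis heart lay below the lowest control, and controls were close to each other, whereas the ICI-myocarditis hearts ranged over 1.87-fold. Means were 5310 ± 457 (SD, n = 4) and 2334 ± 730 (SD, n = 3). Nr1d1 fell by 1.23 on the log2 scale (SE 0.240, 95% interval -1.77 to -0.69, limma adjusted p = 0.0100), which is 2.34-fold lower. The authors' deposited table gives -1.19 with an SE of 0.263 and an adjusted p of 0.000115. Across 17 alternative settings of limma, edgeR and DESeq2 the log2 fold change ran from -1.46 to -1.01 and passed in 17, with the highest adjusted p at 0.0441 without ICI-myocarditis 3.

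The end of Nr1d1 overlaps that of Thra, the gene of thyroid hormone receptor alpha, on the opposite strand. They share 263 exon bases, 8.55% of those of Nr1d1 in GENCODE M21. The libraries were stranded, but whether counting used the strand is not given in the sources used here, so reads from the shared bases cannot be told apart. Thra had 3205, 2425, 2120 and 2950 normalized counts in controls and 1415, 1789 and 1612 in ICI-myocarditis hearts, with no overlap. Thra fell by 0.72 on the log2 scale (SE 0.205), with a limma adjusted p of 0.0420, and 8 of 17 alternatives called it, with adjusted p up to 0.209.

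Nr1d2, its paralog on chromosome 14 (chr14:18204054-18239127, minus strand), encodes REV-ERB beta. It had 4338, 6105, 8078 and 7587 normalized counts in controls and 5702, 4481 and 2749 in ICI-myocarditis hearts. Control 1 lay inside the ICI-myocarditis range, so the groups overlapped. Means were 6527 ± 1683 and 4311 ± 1484, a log2 fold change of -0.62 with a 95% interval from -1.33 to 0.09 (limma adjusted p = 0.225), which includes 0 and also the size seen for Nr1d1. Without ICI-myocarditis 3 it was -0.33. The log2 ratio of Nr1d1 to Nr1d2 was 0.33, -0.15, -0.51 and -0.71 in controls and -1.78, -0.53 and -0.30 in ICI-myocarditis hearts, so ICI-myocarditis 1 had the least Nr1d1 relative to its paralog and the groups overlapped.

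Dbp, on chromosome 7 (chr7:45705088-45710203, plus strand), encodes a PAR bZIP factor whose RNA is among the strongest cycling outputs of the clock. Controls had 2112, 2576, 2993 and 3372 normalized counts and ICI-myocarditis hearts 2103, 2848 and 1115. ICI-myocarditis 1 and 2 fell at or inside the control range and ICI-myocarditis 3 far below it. The log2 fold change was -0.53 (95% interval -1.25 to 0.19, limma adjusted p = 0.301), and -0.15 without ICI-myocarditis 3. Dbp shares 539 exon bases, 18.0% of its own, with Sphk2 on the opposite strand. Sphk2, a sphingosine kinase gene added to the report after the annotation had been read, was at 871 ± 122 and 824 ± 36.7 normalized counts, with an adjusted p of 0.836 in limma.

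Among the activators, Clock (chr5:76209868-76304792, minus strand) had 2648, 2269, 2614 and 2686 normalized counts in controls and 1631, 1772 and 2190 in ICI-myocarditis hearts. The groups did not overlap, though control 2 and ICI-myocarditis 3 lay close. The log2 fold change was -0.46 (SE 0.183, 95% interval -0.87 to -0.05), and with a limma adjusted p of 0.124 it did not pass. Limma-voom with quality weights was the 1 of 17 alternatives in which Clock passed, with an adjusted p of 0.0125, and the other 16 gave up to 0.421. Arntl, its partner (chr7:113207465-113314126, plus strand), had 288, 237, 149 and 143 normalized counts in controls and 105, 117 and 238 in ICI-myocarditis hearts. High and low hearts were found in both groups, with ICI-myocarditis 3 at the level of control 2 and ICI-myocarditis 1 and 2 below all controls. The log2 fold change of -0.44 had a 95% interval from -1.29 to 0.40 (limma adjusted p = 0.475), and it moved to -0.81 without ICI-myocarditis 3 and -0.22 without ICI-myocarditis 1.

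Of the period genes, which encode the inhibitors that pair with CRY proteins, Per2 (chr1:91415982-91459324, minus strand) had 1239, 1014, 890 and 798 normalized counts in controls. ICI-myocarditis hearts had 1630, 1301 and 1631, all above control 1. Means were 985 ± 191 (SD, n = 4) and 1521 ± 190 (SD, n = 3), a log2 fold change of 0.64 (SE 0.206, 95% interval 0.17 to 1.10) with a limma adjusted p of 0.0661. It passed in 2 of 17 alternatives, DESeq2 and limma-voom with quality weights, and adjusted p over the 17 ran from 0.0427 to 0.284. The authors' deposited table lists Per2 at 0.63 with an adjusted p of 0.0430. The log2 ratio of Per2 to Nr1d1 was -2.13, -2.44, -2.67 and -2.54 in controls and -0.03, -1.26 and -0.45 in ICI-myocarditis hearts. It had a 6.24-fold range over the 7 hearts. Per2 lay above and Nr1d1 below all controls in each ICI-myocarditis heart, so the ratio had to keep the groups apart and is no separate result.

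Per1 (chr11:69095217-69109960, plus strand), which also answers quickly to glucocorticoids and cAMP, had 6101, 2542, 1713 and 3723 normalized counts in controls and 4604, 3739 and 4371 in ICI-myocarditis hearts. The controls spanned 3.56-fold and enclosed the ICI-myocarditis hearts, which spanned 1.23-fold. The log2 fold change was 0.42 (95% interval -0.44 to 1.29, limma adjusted p = 0.512), and it was 0.13 without control 3 and 0.74 without control 1. Per3 (chr4:151003652-151044665, minus strand) had 1386, 2439, 1914 and 1175 against 1610, 1947 and 1295, fully overlapping ranges with a log2 fold change of -0.06 (95% interval -0.68 to 0.57, limma adjusted p = 0.917). Its sign was not stable, at 0.10 when libraries were scaled by size alone and 0.13 without control 2.

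The cryptochrome genes, whose proteins are the main inhibitors of ARNTL and CLOCK, varied least among controls. Cry1 (chr10:85131700-85185064, minus strand) had 432, 414, 386 and 374 normalized counts in controls and 458, 378 and 515 in ICI-myocarditis hearts, and Cry2 (chr2:92403646-92434043, minus strand) had 1261, 1185, 1266 and 1368 against 1137, 1210 and 1038. The groups overlapped for both. Log2 fold changes were 0.16 (95% interval -0.27 to 0.58) and -0.17 (95% interval -0.54 to 0.20), with limma adjusted p of 0.636 and 0.533, and Cry1 was at 0.05 without ICI-myocarditis 3. A change of more than 0.58 in Cry1 or 0.54 in Cry2 on the log2 scale, in either direction, lies outside these intervals. Of the exon bases of Cry2, 4.67% are shared with the opposite-strand transcript D930015M05Rik.

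In all, 1 of 10 members (10%) passed in limma, against 15.7% of all genes tested. Among all genes, 11.7% were called higher and 4.00% lower. Of the members 0 were called higher, with 1 at an unadjusted p under 0.05 and 1 called by DESeq2 and 0 by edgeR, and 1 was called lower. Groups did not overlap for 3 of 10 members, near the 28.6% of all genes, and did so with an adjusted p under 0.05 for 1, against 15.6%. Without control 2, Nr1d1 was again the 1 member called (log2 fold change -1.21, limma adjusted p = 0.0105). The share of clock genes called in either direction was thus near the background or below it. In the lower direction alone it was above the 4.00% of all genes, through 1 gene. The members' median log2 fold change was -0.31, with 7 below 0 and 3 above, beside a median of -0.02 over all genes tested.

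**Figure D2:**
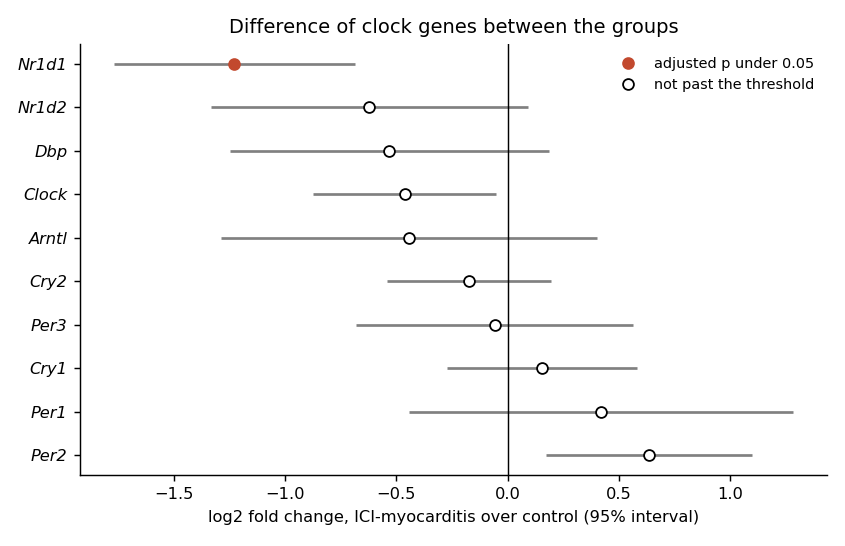
Log2 fold change of each clock gene, ICI-myocarditis over control, on the x axis, with bars for the 95% interval from limma. The filled point is Nr1d1, the gene with an adjusted p under 0.05, and the intervals of Per2 and Clock leave out 0 without passing after adjustment.

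The question put to these genes was whether antiphase pairs differ between hearts in a way that would accompany different times of collection. Spread within groups came first. Among controls the coefficient of variation was 54.2% for Per1, 34.7% for Arntl, 32.8% for Per3, 25.8% for Nr1d2, 19.6% for Dbp and 19.4% for Per2, but 8.62% for Nr1d1, 7.54% for Clock, 6.51% for Cry1 and 5.88% for Cry2. The median over 11972 genes with a mean of at least 100 normalized counts was 24.7%, so Per1, Arntl, Per3 and Nr1d2 were above it and the other 6 below. Among ICI-myocarditis hearts Arntl (48.1%), Dbp (43.0%), Nr1d2 (34.4%) and Nr1d1 (31.3%) led, beside a median of 17.7% for the same 11972 genes.

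Ordered by Arntl, the hearts were control 1, ICI-myocarditis 3, control 2, control 3, control 4, ICI-myocarditis 2 and ICI-myocarditis 1. The log2 ratio of Arntl to Dbp was -2.87, -3.44, -4.33 and -4.56 in controls 1 to 4 and -4.32, -4.61 and -2.23 in ICI-myocarditis hearts 1 to 3. ICI-myocarditis 3 and control 1 had the highest ratios and ICI-myocarditis 2 the lowest, over a 5.22-fold range, while the group means were -3.80 ± 0.786 and -3.72 ± 1.30. The ratio of Arntl to Nr1d2 gave -3.91, -4.69, -5.77 and -5.73 in controls and -5.76, -5.26 and -3.53 in ICI-myocarditis hearts, a 4.72-fold range. Again ICI-myocarditis 3 and control 1 were highest. The ratio to Nr1d1 was -4.24, -4.54, -5.25 and -5.02 in controls and -3.98, -4.74 and -3.23 in ICI-myocarditis hearts. None of these 3 ratios kept the groups apart, so hearts with a high and hearts with a low Arntl share were found under both labels. The time of collection is not in the labels, and its part in these values was not tested.

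**Figure D3:**
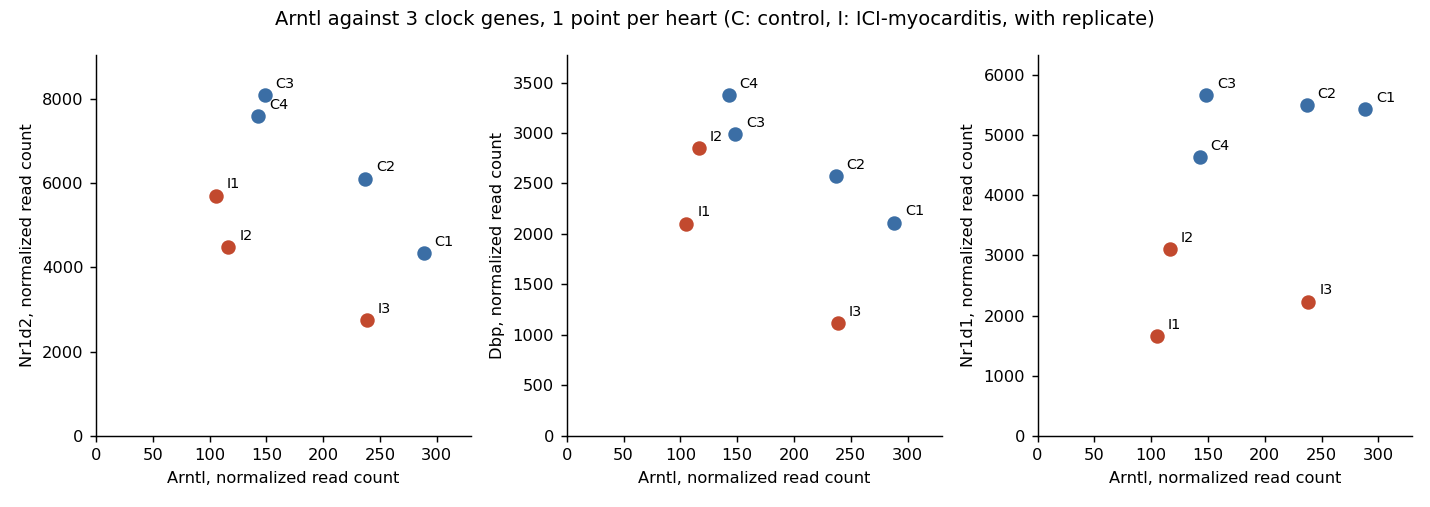
Normalized counts of Nr1d2 (left), Dbp (middle) and Nr1d1 (right) on the y axis against Arntl on the x axis, 1 point per heart, blue for controls (C1 to C4) and red for ICI-myocarditis hearts (I1 to I3). In the left panel points run downward within each colour, with red below blue at a like Arntl, and in the right panel the colours are split by Nr1d1 alone.

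Over all 7 hearts, no pair passed. Correlations of log2(normalized count + 1) of Arntl with 6 genes were tested by exact two-sided permutation and adjusted over the 6. With Dbp, Pearson's r was -0.454 (exact permutation p = 0.325, adjusted p = 0.683) and Spearman's rho -0.286 (exact permutation p = 0.556, adjusted p = 0.939). With Nr1d2, r was -0.426 (exact permutation p = 0.342, adjusted p = 0.683) and rho -0.393 (exact permutation p = 0.396, adjusted p = 0.939). Arntl and Dbp, like Arntl and Nr1d2, thus had the sign of an antiphase pair without passing. With Nr1d1, r was 0.443 (exact permutation p = 0.314, adjusted p = 0.683) and rho 0.429 (exact permutation p = 0.354, adjusted p = 0.939). With Per1, Per2 and Per3, r was 0.195, 0.0017 and -0.090 (exact permutation p = 0.671, 0.998 and 0.844, adjusted p = 0.998 for each), and rho was 0.143, 0 and -0.179 (exact permutation p = 0.783, 1 and 0.713). Without control 1 and ICI-myocarditis 3, the 2 hearts farthest from the Arntl median, r was 0.200 for Dbp, 0.315 for Nr1d2, 0.769 for Nr1d1, -0.574 for Per1, -0.557 for Per2 and 0.517 for Per3 over 5 hearts. The negative signs of r over all hearts for Dbp and Nr1d2 thus turned when both were left out. With either left out alone they stayed negative. With 1 heart left out at a time, r ran from -0.622 to -0.282 for Dbp, -0.574 to -0.231 for Nr1d2 and 0.099 to 0.735 for Nr1d1.

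Within groups, r was larger in size for the same 2 genes. After each library's value was expressed as its deviation from its own group mean, Arntl and Nr1d2 had r = -0.964 and Arntl and Dbp r = -0.887 over the 7 libraries, given as descriptions without p. Leaving out 1 library at a time kept r between -0.983 and -0.929 for Nr1d2 and between -0.973 and -0.753 for Dbp. Scaling by library size alone gave -0.645 and -0.655, the weakest values over the alternatives. Without control 1 and ICI-myocarditis 3 together, a setting chosen after the data had been seen, r was -0.842 for Nr1d2 and -0.474 for Dbp. All points share their library's depth and scaling, and the 2 group means were removed from 7 values. The summed red blood cell markers ran opposite to Arntl too, from 10755 in control 1 up to 42548 in control 4 and from 6845 in ICI-myocarditis 3 up to 28527 in ICI-myocarditis 1, the order in which Arntl fell within each group. Their part in the pairs was not tested.

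Nr1d1 did not follow its paralog. Its deviations had r = 0.156 with Arntl (-0.350 to 0.744 when 1 library was left out), -0.260 with Nr1d2 and 0.206 with Dbp, whereas Nr1d2 and Dbp had r = 0.811 with each other. Cry1 moved against Dbp (r = -0.952) and with Arntl (0.769) and Per2 (0.795), and Cry2 moved with Dbp (0.835) and against Arntl (-0.752) and Cry1 (-0.845). Per2 had r = 0.719 with Arntl, Per1 0.419 and Per3 -0.138. The size of these deviations differed widely, since those of Cry2 spanned -0.12 to 0.11 on the log2 scale and those of Arntl -0.45 to 0.73.

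**Figure D4:**
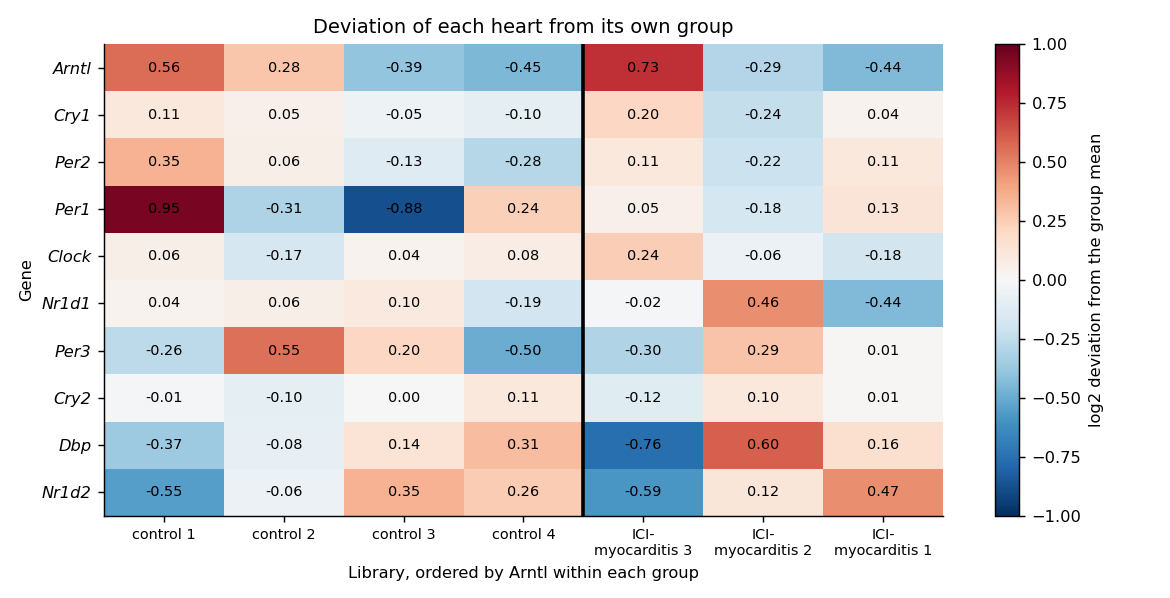
Deviation of each library (x axis) from its own group mean for each clock gene (y axis), in log2 units by colour and printed in the cells, with libraries ordered by Arntl within each group and a black line between controls and ICI-myocarditis hearts. Arntl runs from 0.56 to -0.45 and from 0.73 to -0.44, and the bottom rows, Dbp and Nr1d2, start negative and end positive in both groups.

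The same measure over the 7 libraries ranked 11407 genes, those with a mean of at least 100 normalized counts after predicted genes were left out. In this ranking Nr1d2 was the 41st most opposite to Arntl and Dbp the 513th. The 5 genes most like Arntl were Zfp385a (r = 0.994), Ppfia1 (0.993), Axl (0.993), Nedd9 (0.992) and Tln1 (0.992). The 5 most opposite were Abhd13 (-0.997), Tmem136 (-0.989), Sgol2 (-0.989), Ankmy2 (-0.989) and Pf4 (-0.987). Those most like Dbp were Alox5 (0.993), Itfg2 (0.991), Pick1 (0.977), Zmat1 (0.976) and Klhl8 (0.973), and those most opposite were Spock2 (-0.975), Rab31 (-0.969), Thsd7a (-0.964), Vti1a (-0.962) and Bach1 (-0.956). Genes outside the clock thus reached more extreme values than the members did. Dbp's fellow PAR bZIP genes were near its pattern, Tef at rank 149 (r = 0.876) and Hlf at rank 293 (0.831), as was Ciart, a clock repressor listed under an older symbol, at rank 436 (0.797). Tef, Ciart and, from the clock-controlled list, the mitochondrial carrier gene Ucp3 are named here after their values were seen. The listed genes did not follow Dbp as a set. Among the ranked genes of both lists, r with Dbp ran from -0.716 (Bdh1) to 0.971 (Ucp3). Csnk1d (-0.547) and Nfil3 (-0.462) were among the regulators on the negative side. Ucp3 was the 8th most like Dbp (0.971) and the 78th most opposite to Arntl (-0.952), and Cry1 was the 7th most opposite to Dbp.

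The rest of the clock machinery was read from a list of 19 other regulators, among them kinases, ubiquitin ligases, ROR receptors and the PAR bZIP genes. None of the 19 passed in limma, edgeR or DESeq2, beside 15.7% of all genes tested in limma, and 1 had an unadjusted p under 0.05. Their median log2 fold change was -0.09, with 8 above 0 and 11 below. Btrc, whose product marks PER proteins for breakdown, had the lowest p. It was the 1 of 19 with groups apart, beside 28.6% of all genes. Its values were 888 ± 70.8 (SD, n = 4) and 654 ± 56.2 (SD, n = 3) normalized counts (log2 fold change -0.44, limma adjusted p = 0.117). Hlf had 1375, 929, 1550 and 1664 normalized counts in controls and 873, 1270 and 549 in ICI-myocarditis hearts (log2 fold change -0.67, limma adjusted p = 0.185).

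Of 13 genes that the clock is known to drive in heart or elsewhere, 2 were called lower, beside 4.00% of all genes tested, and 0 higher in limma, with 1 at an unadjusted p under 0.05 in the higher direction. EdgeR called the same 2 lower, DESeq2 called Ucp3 lower besides them, and limma-voom with quality weights called those 3 lower and Wee1, a cell cycle kinase gene, higher. The groups were apart in 4 of 13, near the 28.6% of all genes, and the median log2 fold change was -0.38. Kcnip2, the subunit KChIP2 of the transient outward potassium channel, had 7358, 3197, 5641 and 9759 normalized counts in controls and 2235, 2495 and 555 in ICI-myocarditis hearts. It fell by 2.04 on the log2 scale (SE 0.548), with a limma adjusted p of 0.0354, and passed in 13 of 17 alternatives, with adjusted p up to 0.0970 without ICI-myocarditis 3. Bdh1, the ketone body enzyme of mitochondria, had 3175, 1409, 1413 and 2788 against 426, 294 and 885. It fell by 2.09 on the log2 scale (SE 0.425), with a limma adjusted p of 0.0118, and passed in 17 of 17. Both genes kept the groups apart and are expressed in cardiomyocytes, whose summed markers are given above. The deviations of Bdh1 had r = -0.716 with those of Dbp and those of Kcnip2 0.779, so the 2 called genes varied in opposite directions with Dbp between hearts.

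Because Per1 and Per2 also respond to hormones and acute stimuli, 2 further lists were read. Of 10 glucocorticoid-responsive genes, 2 were called higher, beside 11.7% of all genes, and 0 lower in limma, with 0 lower at an unadjusted p under 0.05. EdgeR and DESeq2 called the same 2, limma-voom with quality weights called Mt2 alone, and the median log2 fold change was 0.31. Mt2, a metallothionein gene, had 548, 190, 289 and 732 normalized counts in controls and 1906, 1633 and 1806 in ICI-myocarditis hearts. It rose by 2.20 on the log2 scale (SE 0.415), with a limma adjusted p of 0.00890, and passed in 17 of 17 settings. Fkbp5, a co-chaperone of the glucocorticoid receptor, had 1387, 528, 413 and 786 against 3030, 1070 and 4215, with ICI-myocarditis 2 below control 1. Fkbp5 rose by 1.77 (SE 0.518, log2 scale) with a limma adjusted p of 0.0476. Of 17 alternatives 8 called it, and its adjusted p reached 0.191. ICI-myocarditis 2, the lowest of its group for Fkbp5 and Mt2, was also the lowest of its group for Per1 and Per2. Of the other listed genes, Zbtb16, Klf9 and Dusp1 were lowest in ICI-myocarditis 3 and the rest in ICI-myocarditis 2. A link of the list to Per1 and Per2 was not tested.

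Of 9 immediate early genes, 3 were called higher, beside 11.7% of all genes, and 0 lower in limma, with 0 lower at an unadjusted p under 0.05. EdgeR called 3 higher, DESeq2 4 and limma-voom with quality weights 7, and each called 0 lower. Their median log2 fold change was 1.36, and 5 of 9 kept the groups apart, beside 28.6% of all genes. Junb, an AP-1 subunit, had 760 ± 239 and 1921 ± 521 normalized counts, a log2 difference of 1.36 whose limma adjusted p was 0.0139, and 16 of 17 alternatives called it. Atf3, a stress-induced factor, had 279 ± 137 and 798 ± 160 (a log2 difference of 1.67, limma adjusted p = 0.0312) and was called in 14 of 17. Egr3 was low, at 23.3 ± 7.35 and 111 ± 76.3 (a log2 difference of 1.95, limma adjusted p = 0.0475). Of 16 alternatives 7 called it, with adjusted p up to 0.213 without ICI-myocarditis 3. Per1, at 6101 normalized counts in control 1 and 1713 in control 3, was not among the genes that separated the groups. Of the called genes, Atf3 and Egr3 were likewise highest in control 1 and lowest in control 3 among controls. Junb was highest in control 2 and lowest in control 3. A link of these genes to Per1 was not tested.

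**Figure D5:**
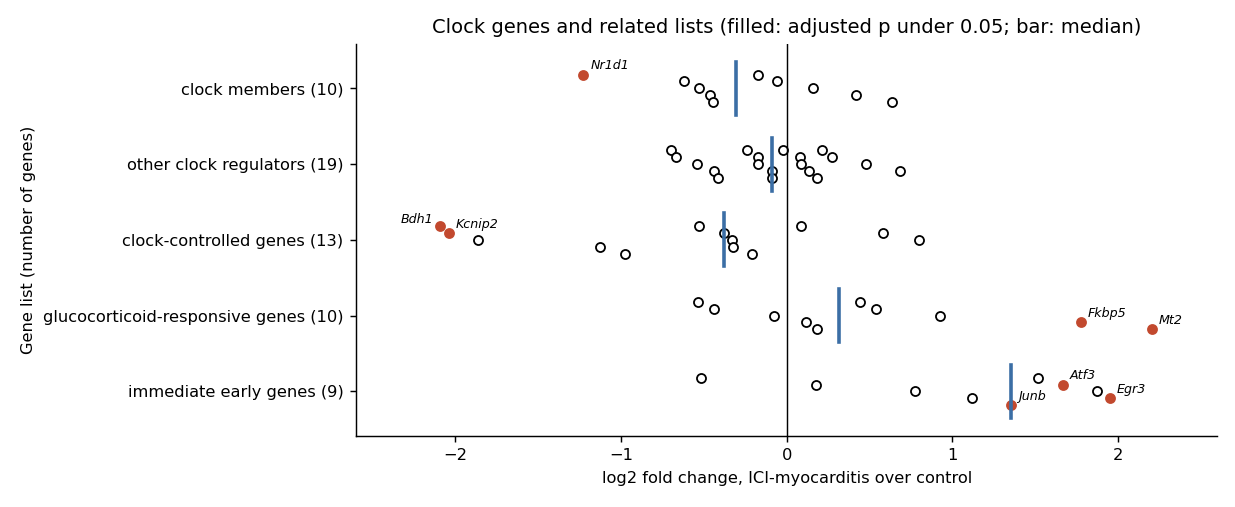
Log2 fold change, ICI-myocarditis over control, of each gene (points, x axis) in the clock members and 4 related lists (y axis, with the number of genes), filled and named where the limma adjusted p is under 0.05, with a blue bar at the list's median. Clock members and regulators centre near -0.31 and -0.09, and immediate early genes at 1.36.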

How the data were processed

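Total RNA libraries (Illumina TruSeq stranded) of 4 control and 3 ICI-myocarditis mouse ventricles were sequenced in pairs, per the labels' protocols. STAR 2.7.3 and GRCm38/mm10 stand in the submitters' processing notes, without roles, and the counting program is not given in the sources used here. The deposited values per library are a signal, read counts of genes scaled by the authors with 1 size factor for each library, and the deposited mean is that of the 7 libraries. Per the file headers, the authors' comparison adds log2 fold changes and their SEs, test statistics (a score) and p-values before and after adjustment. Each library's values were whole multiples of 1 step, within 0.1 read, for 100% of values, and reads were recovered from it. For control 1 the step is 1.01, close to 1, and its largest deviation from a whole multiple was 0.000293 read. That lay inside the range of the other libraries. Totals ran from 20931730 to 39037176 reads. At this depth spread between hearts limits precision. No column of other samples was present. Rows with names turned into dates numbered 27.

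Log2(normalized count + 1) of the 15258 genes that reached 10 normalized counts in 3 or more libraries was tested with limma 3.58.1 (R 4.3.3, trend and robust), and p was adjusted by Benjamini-Hochberg over all of them at 0.05. Folds of low genes are understated on this scale. Alternatives used edgeR 4.0.16, DESeq2 1.42.0 and limma-voom on recovered reads, other scalings, filters and pseudocounts, a replicate block and each library left out. The limma script was tested on simulated data. The genes, lists and pairs were chosen with earlier results of these data known. Named genes are the 10 members, every called gene of each other list or the 2 of lowest p where fewer than 2 passed, the 5 genes most like and most opposite to Arntl and to Dbp with predicted genes passed over, and Thra. Sphk2 was added after the annotation was read. Tef, Ciart, Ucp3, Wee1, Csnk1d, Nfil3, Zbtb16, Klf9, Dusp1 and the single fibroblast markers were added after their values were seen. Coordinates are from GENCODE M21 on GRCm38.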

Additional observations from a re-analysis of the deposited data

Results flagged for a closer look

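Of 28 values looked at (the 10 clock genes, the pair ratios and other named genes in the 4 controls), 1 stood out. Clock in control 2 (2269 normalized counts) lay below the other 3 controls (2614 to 2686). On the log2(normalized count + 1) scale the gap was 0.839 of the controls' whole range, just above Dixon's 95% critical value for 4 samples. On the normalized counts themselves it was 0.827, just below that value, so the flag rests on the scale. Chance alone flags about 1 in 20 groups. Control 2 was also the control with the highest summed T cell markers, and the part of that in its Clock value was not tested.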

How the results depend on the processing

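Nr1d1 passed in all 17 alternatives. The count of clock genes called, 1 in the reported fit, was 2 with DESeq2 (Per2 and Nr1d1) and 3 with limma-voom and quality weights (Clock, Per2 and Nr1d1). Over all genes, 2397 were called, and 4003 with limma-voom and quality weights. When 1 library was left out, which leaves fewer samples, the count ran from 986 to 3340. It was 1396 without ICI-myocarditis 2, 986 without ICI-myocarditis 3, 1508 without control 1, 1298 without control 3 and 3340 without control 2. The cause of these shifts was not tested. Scaling by library size alone moved the median log2 fold change of all genes from -0.02 to 0.13, and turned Per3 from -0.06 to 0.10, Sphk2 from -0.07 to 0.0898 and the r of Arntl and Per3 to 0.226. Per3 was at 0.0615 with limma-voom and between -0.22 and 0.13 when 1 library was left out. Leaving out 1 library moved r with Arntl between -0.205 and 0.420 for Per1, -0.240 and 0.388 for Per2, and -0.499 and 0.0943 for Per3. Over the 21 named genes and 356 alternatives, 312 kept direction and side of the threshold, 35 no longer passed, 3 newly passed and 6 turned sign. The deviations of same-numbered hearts had r of -0.0528, -0.209 and -0.327, and none correlated best with its own number. With so few hearts and the group means removed, these r depend on each other and cannot show whether the numbers pair hearts. With the replicate block 1780 genes were called, among them 1 clock gene, Nr1d1 (log2 fold change -1.29, adjusted p = 0.0293).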
